A study of Glycine max with 9 samples.

Results

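Unifoliate leaves of soybean (Glycine max, cultivar Williams82 PI518671) were compared after 1 h at 4 °C and before chilling, across all genes measured. The comparison used 6 of the 9 RNA-seq libraries of the series, 3 at 0 h and 3 at 1 h. Each 1 h library was set against the 0 h library with the same replicate number, so the change was measured in 3 pairs that share no library. Seedlings were 2 weeks old, had grown at 20 °C under a light cycle of 18 h on and 6 h off, and had been neither inoculated with Rhizobium nor fertilized. Chilling started 4 h after the lights came on, and at least 6 plants stood behind each replicate. The 0 h leaves were unchilled leaves of the same cultivar and growth. Harvest of the 1 h leaves fell 1 h later in the day, and unchilled leaves from that time of day were not analysed here. The effect of cold and the effect of the hour therefore cannot be told apart. The labels do not say whether the replicates came from separate sowings. The reported p-values therefore rest only on spread between these 3 pairs, which may be technical. The spread used for each gene is also moderated by that of other genes.

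Soybean is a crop of warm climates and is counted among the chilling-sensitive plants. In plants, mainly as worked out in Arabidopsis, a sudden drop in temperature is followed quickly by calcium signals and by the induction of transcription factors, among them the CBF/DREB1 family, ahead of slower changes in metabolism. Many leaf transcripts also follow the circadian clock, so that the hour of harvest alone moves their levels.

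The table gave 49777 genes as normalized read counts, and 39014 of them averaged 10 or more across these 6 libraries and were tested. A library held 41837 to 45808 genes above 0 and a total of 71.0 to 80.9 M normalized counts. The spacing of the low values put the depth at about 17.9 to 58.3 M reads, lowest in replicate 2 at 0 h. The identifiers were not paired with gene names in the sources used here, so the leaf could not be checked against marker genes and no function is given for any gene. An identifier such as Glyma18g14490 carries a chromosome number, here 18. Positions within chromosomes, and whether near-identical gene copies shared reads, were not given.

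Replicate numbers differed far more than the times did. Of the variation in log2 values among the 6 libraries, as a sum of squares over genes, 88.9% went with the replicate number, 4.7% with time and 6.4% with neither. These shares are not divided by degrees of freedom, of which time has the fewest. At 0 h, replicate 3 lay more than 2-fold away from the average of the other two in 41.5% of the 28566 genes averaging 100 or more, while replicates 1 and 2 differed that much from each other in 5.3%. For these genes the median SD between the 3 libraries of 0 h was 0.50 on the log2 scale. The median size of the change at 1 h was 0.15, and the median SD of the 3 pair changes was 0.18. The change is a mean of 3 pairs, while both SDs describe single libraries or single pair changes. A mean of 3 varies less than a single pair change, so these sizes are not directly comparable. What the replicate number shares was not given in the labels.

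After 1 h at 4 °C, 364 genes were higher and 371 lower than before chilling, in all 735 of 39014 genes or 1.88% of those tested (limma on log2(normalized count + 1), replicate number as a block, Benjamini-Hochberg adjusted p under 0.05). The genes that rose were 0.933% of those tested and the genes that fell 0.951%. In bulk leaf RNA, fewer cells of a type and less RNA per cell cannot be told apart. Most changes were small. The median change was 1.47-fold in the genes that rose and 1.44-fold in those that fell, and 58.9% of all called genes changed less than 1.5-fold. Rises of at least 2-fold were found in 47 genes, or 0.12% of those tested, and falls of at least 2-fold in 38, or 0.0974%. At least 4-fold changes were found in 7 genes each way, and at least 8-fold changes in 5 genes that rose and 2 that fell. All 735 called genes moved in the same direction in all 3 pairs, which the test favours by construction. In 188 of them the 3 values of 1 h also did not overlap the 3 values of 0 h, which choosing by the same values favours. Of all genes tested, the values of 1 h lay wholly above those of 0 h in 2.49% and wholly below in 2.18%.

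These counts depended on the pairing, on the estimate of spread and on single pairs. The reported fit had 6871 genes at an unadjusted p under 0.05 (limma). Without the replicate block no gene passed (limma, smallest adjusted p = 0.104, 287 genes at an unadjusted p under 0.05), and with the block but without trend and robust moderation none did either (smallest adjusted p = 0.308, 4847 genes at an unadjusted p under 0.05). Without the libraries of replicate 1, 2 or 3, 34, 48 and 437 genes passed. Equal library totals changed the split to 637 higher and 233 lower genes, and quantile normalization to 441 and 269.

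**Figure D1:**
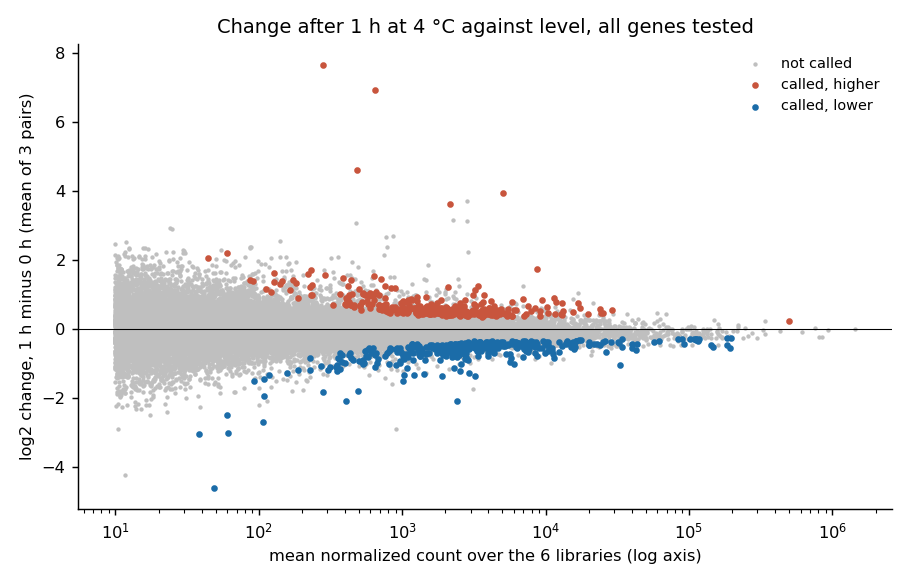
Change at 1 h against level for the 39014 genes tested. The x axis is the mean normalized count over the 6 libraries (log axis) and the y axis the log2 change, 1 h minus 0 h, averaged over the 3 pairs. Grey points were not called, red points were called higher (364) and blue points called lower (371). Rises reach 7.66 on the log2 scale and falls 4.60, while most called genes lie near the grey cloud at means above 1000.

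Of the 7 called genes that rose at least 4-fold, 5 rose at least 8-fold and are described here. Glyma18g14490 and Glyma08g41640 were named by a rule that ranked the 107 called, non-overlapping genes averaging 100 or more at the higher time by the change that every pair reached. Glyma17g12804, Glyma14g37440 and Glyma02g45170 were added after their values were seen.

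Glyma18g14490, on chromosome 18 by its identifier, had the largest change reached by every pair. In replicates 1, 2 and 3, in the order used for every gene below, its normalized counts were 8, 12 and 8 before chilling and 1559, 1476 and 828 after 1 h. Every chilled value was thus far above every unchilled one, and replicate 3 was lowest at 1 h. Pairs 1, 2 and 3 gave log2 changes of 7.44, 6.83 and 6.53, with a mean of 6.93 ± 0.24 (moderated SE, 3 pairs, limma adjusted p = 3.83e-05), or 122-fold. The unchilled values rest on about 3.2, 2.9 and 5.2 reads.

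Glyma08g41640, on chromosome 8 by its identifier, went from near silence to a clear signal. Its normalized counts were 5, 0 and 2 before chilling and 514, 797 and 361 after 1 h, again with no overlap. The log2 change was 6.42, 9.64 and 6.91 in pairs 1, 2 and 3, with a mean of 7.66 ± 0.62 (moderated SE, 3 pairs, limma adjusted p = 0.0130). The unchilled leaves held about 3 reads in all, and the chilled leaves about 757. Scaled to depth this was a ratio of 227, with an exact binomial 95% interval of 77 to 1102 that covers counting error only.

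Glyma17g12804 had the tightest chilled values of the group. Unchilled leaves had 25, 37 and 53 normalized counts and chilled leaves 922, 967 and 909. The unchilled values spread more than 2-fold while the chilled ones were nearly equal. Pairs 1, 2 and 3 rose by 5.15, 4.67 and 4.07 on the log2 scale, with a mean of 4.63 ± 0.23 (moderated SE, 3 pairs, limma adjusted p = 0.000337).

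Glyma14g37440 gave the most even change between pairs of the 5 named rises and the smallest adjusted p-value of the comparison. Unchilled leaves had 291, 455 and 185 normalized counts and chilled leaves 3909, 5979 and 2043. Replicate 2 was highest and replicate 3 lowest at both times, so the order of the replicates was the same before and after chilling. The log2 change was 3.74, 3.71 and 3.46, with a mean of 3.64 ± 0.10 (moderated SE, 3 pairs, limma adjusted p = 7.29e-06).

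Glyma02g45170 showed how far level and response could separate in replicate 3. Unchilled leaves had 579, 1458 and 25 normalized counts and chilled leaves 15105, 12911 and 425. The chilled value of replicate 3 lay below the unchilled values of replicates 1 and 2, so the groups overlapped although every pair rose. Within pairs 1, 2 and 3 it changed by 4.70, 3.15 and 4.03 on the log2 scale, with a mean of 3.96 ± 0.32 (moderated SE, 3 pairs, limma adjusted p = 0.0307). This call was lost without the libraries of replicate 3.

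The ranking of called, non-overlapping genes had a gap below these rises. Glyma14g37440, rank 4, reached a log2 change of 3.46 in every pair, and the gene in rank 5 reached 1.46. Genes that were not called or whose groups overlapped, such as Glyma02g45170, are not in this ranking. The 8 genes in ranks 5 to 12 reached 1.02 to 1.46 in every pair, with mean changes of 1.08 to 2.21. Their levels were 19.0 to 2001 normalized counts at 0 h and 101.3 to 4794 at 1 h.

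The largest fall of a called gene was 4.60 on the log2 scale and the largest rise 7.66. A fall cannot go below 0 counts, which limits its size in genes of low level. Glyma10g34991, at -4.60, changed by more than Glyma02g45170 and Glyma14g37440, which rose by 3.96 and 3.64. Glyma09g32120 and Glyma19g27580 led the 78 called, non-overlapping genes that were ranked in the same way. Glyma10g34991 and Glyma10g35000 were added after their values were seen, as the called genes that fell at least 8-fold. Their levels of 92.7 and 69.0 normalized counts at 0 h were below the minimum of 100 that the ranking used.

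Glyma09g32120, on chromosome 9 by its identifier, had 118, 79 and 125 normalized counts before chilling and 8, 8 and 28 after it. All chilled values lay below all unchilled ones, and replicate 3 kept the highest level. The log2 change was -3.72, -3.15 and -2.12 in pairs 1, 2 and 3, with a mean of -3.00 ± 0.41 (moderated SE, 3 pairs, limma adjusted p = 0.0259). The chilled values rest on about 3.0, 3.0 and 21.1 reads.

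Glyma19g27580, on chromosome 19 by its identifier, had 136, 183 and 197 normalized counts before chilling and 39, 44 and 50 after it. Both groups were narrow and far apart. Its log2 change was -1.78, -2.03 and -1.96 in pairs 1, 2 and 3, with a mean of -1.92 ± 0.23 (moderated SE, 3 pairs, limma adjusted p = 0.0193). Without the libraries of replicate 1 or of replicate 2, neither Glyma09g32120 nor Glyma19g27580 passed.

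Glyma10g34991 and Glyma10g35000 are next to each other in the numbering of chromosome 10. Glyma10g34991 had 108, 93 and 77 normalized counts before chilling and 0, 3 and 13 after it, a mean log2 change of -4.60 ± 0.78 (moderated SE, 3 pairs, limma adjusted p = 0.0390). Glyma10g35000 had 112, 48 and 47 before chilling and 5, 8 and 8 after it, a mean log2 change of -3.03 ± 0.52 (moderated SE, 3 pairs, limma adjusted p = 0.0373). In both genes every chilled value was below every unchilled one. With at most about 9.8 reads in a chilled library, the size of these falls is loosely fixed, and both calls were lost without the libraries of replicate 1 or of replicate 2. The 95% interval was -6.42 to -2.78 for Glyma10g34991 and -4.22 to -1.84 for Glyma10g35000. Whether reads of one gene were counted in the other was not tested.

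**Figure D2:**
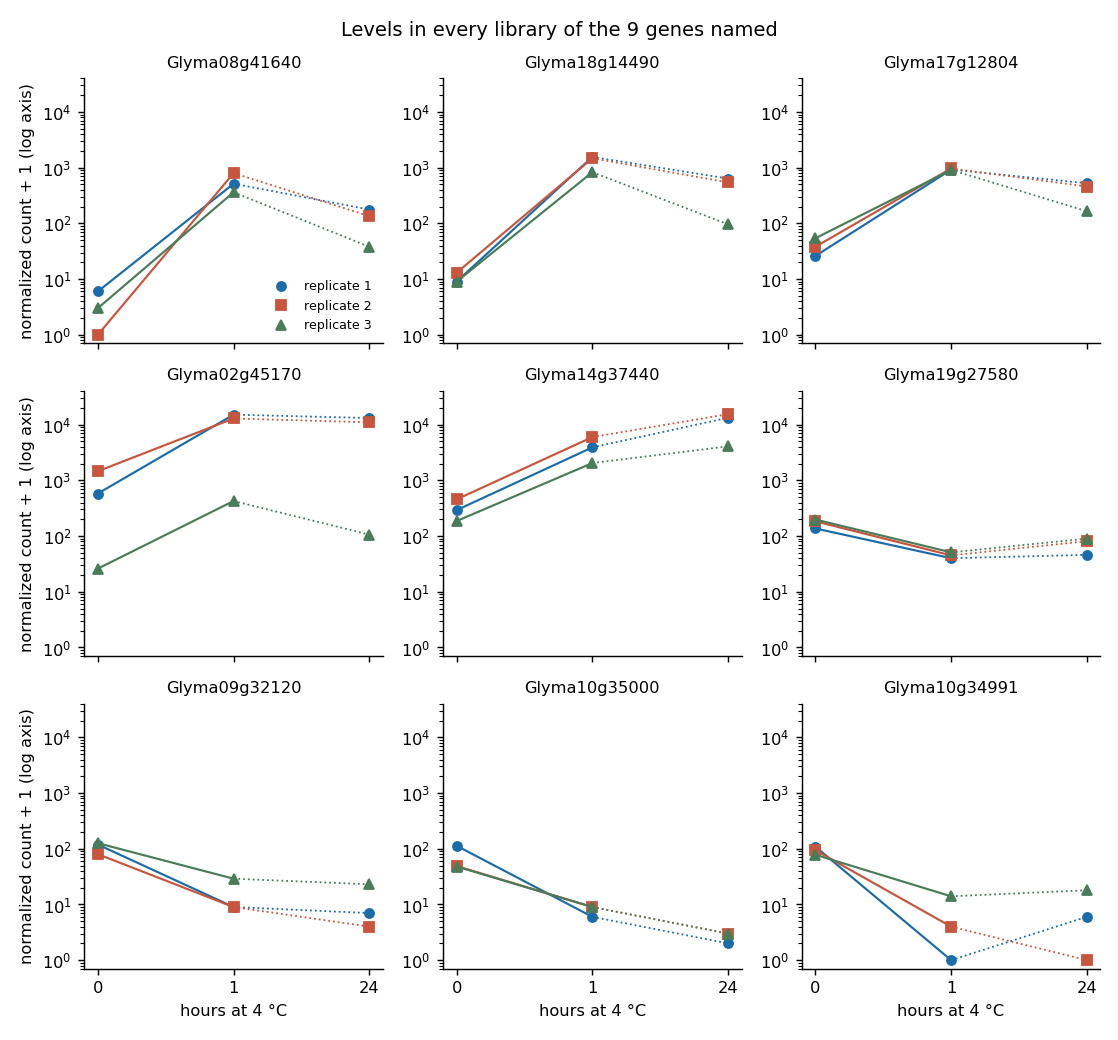
Normalized count + 1 (log axis) of the 9 named genes in every library after 0, 1 and 24 h at 4 °C. Points and lines are single libraries, 1 colour and marker per replicate number, with solid lines for the pairs compared (0 h to 1 h) and dotted lines on to 24 h. In the 5 genes at the start every solid line rises and in the other 4 every solid line falls. In Glyma02g45170 replicate 3 lies far below the others at each time.

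The 10 further genes that fell, in ranks 3 to 12, reached log2 changes of -1.67 to -0.67 in every pair. Their levels were 104 to 4118 normalized counts at 0 h and 17.0 to 1943 at 1 h, so the ranks hold moderately abundant genes as well as low ones.

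Larger changes that all pairs shared were uncommon among the 29083 genes averaging 100 or more at 0 h or 1 h. Every pair rose at least 1.5-fold in 151 of these genes and fell at least 1.5-fold in 115. At 2-fold the numbers were 35 and 21, and at 4-fold 6 and 1. At 8-fold they were 5 and 0. Of the genes that reached 2-fold in every pair, 23 of the 35 that rose and 16 of the 21 that fell were called. Without regard to the test, the 3 values of 1 h lay above all 3 values of 0 h in 973 genes, 2.49% of those tested, and below them in 852, or 2.18%. Values unrelated to time also do not overlap in some genes, and that share was not computed here. These 2 counts are therefore not a measure of response.

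The agreement between pairs rose steeply with the level of the genes. Across genes, which are not independent replicates, the pair changes of the 11779 genes averaging 1000 or more correlated at 0.39 for pairs 1 and 2, 0.51 for pairs 1 and 3 and 0.45 for pairs 2 and 3. Among the 16787 genes averaging 100 to under 1000 the values were 0.20, 0.26 and 0.25. Among the 10448 genes averaging 10 to under 100 they were 0.08, 0.09 and 0.08. Genes that moved the same way in all 3 pairs made up 53.1%, 37.2% and 26.3% of these classes, from the most to the least abundant. Pairs with unrelated changes also agree in direction in some genes, and that share was not computed here. A share by itself, above all that of the lowest class, is therefore not a measure of response. The called genes followed the same order, with 576, 150 and 9 genes, or 4.89%, 0.894% and 0.086%.

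**Figure D3:**
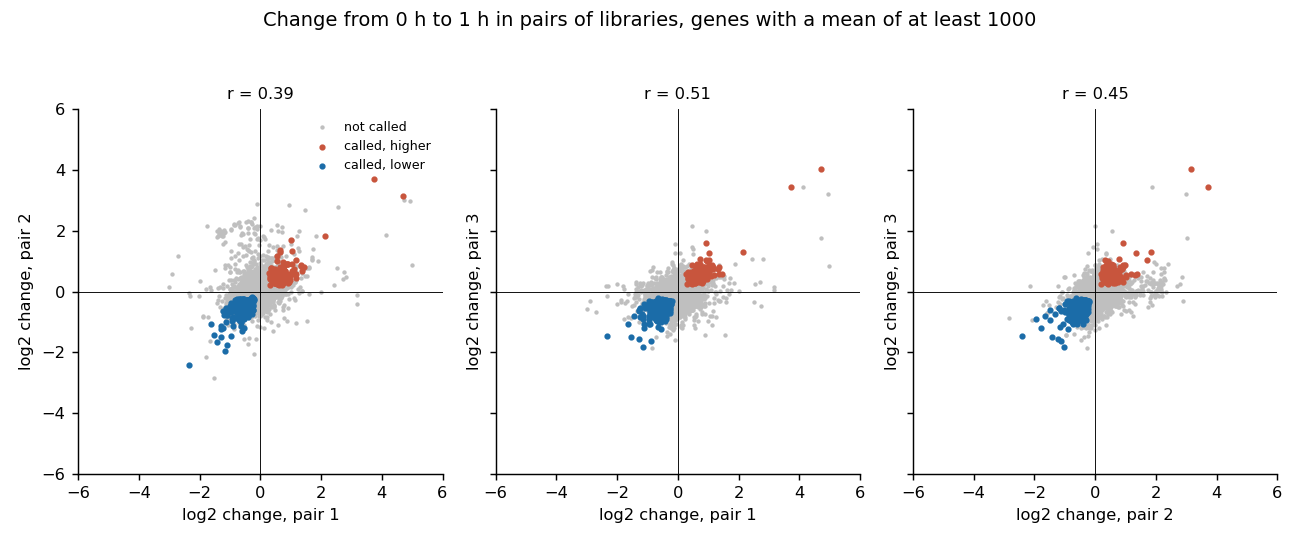
Log2 change from 0 h to 1 h in each pair of libraries against each other pair, for the 11779 genes averaging 1000 or more. Each point is a gene, grey where not called, red where called higher and blue where called lower, and r is Pearson's correlation across genes. The clouds lean upwards in all 3 panels (0.39, 0.51 and 0.45), and a small grey group in the left panel is lower in pair 1 and higher in pair 2.

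This order goes with the precision of the measurement. The median half-width of the 95% interval of a gene's change was 0.19 on the log2 scale, or 1.14-fold, at means of at least 1000. It was 0.35, or 1.28-fold, at 100 to under 1000, and 1.03, or 2.04-fold, at 10 to under 100. These intervals are unadjusted, while the calls used the stricter adjusted p. A typical gene of the lowest class therefore needed a change of more than 2.04-fold to be called. Pairs differed as well. The SD of the change over the least abundant class was 0.97, 1.22 and 0.80 in pairs 1, 2 and 3, and pair 2 holds the shallowest library. Over the most abundant class it was 0.36, 0.31 and 0.28. Changes of at least 2-fold either way were seen in 8.37%, 10.9% and 6.02% of all genes tested in pairs 1, 2 and 3.

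Abundant genes were lower more often than higher on the deposited scale. In the class with a mean of at least 1000, 34.0% of genes were lower in all 3 pairs and 19.0% higher in all 3, while the class from 100 to under 1000 had 18.6% each way. The summed counts of the abundant class changed by -5.12%, -4.90% and -4.24% in pairs 1, 2 and 3, and the total of all genes tested by -4.65%, -4.35% and -3.71%. This direction depends on the scale. Over the 3 pairs a mean of 58.5% of the abundant genes were lower at 1 h as deposited, 53.4% after quantile normalization and 47.2% with equal library totals. Of the 100 genes with the highest mean over the 6 libraries, 68 were lower in all 3 pairs and 7 higher in all 3 on the deposited scale, with a median log2 change of -0.15. The test called 16 of them lower and 1 higher, against 0.951% and 0.933% of all genes tested, and against 4.89% called either way in the most abundant class as a whole.

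**Figure D4:**
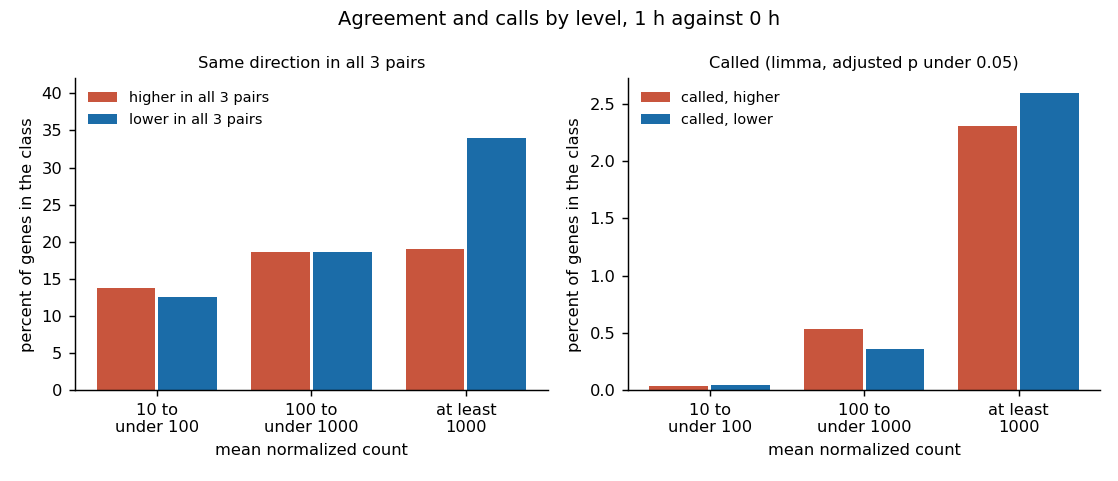
Share of genes in each class of mean normalized count that were higher (red) or lower (blue) at 1 h in all 3 pairs, on the left, and that were called, on the right. Both y axes are percent of the genes in the class and start at 0, with different ranges. The shares on the left rise from 13.8% and 12.5% in the lowest class to 19.0% and 34.0% in the highest. Pairs with unrelated changes would also agree in direction in some genes.

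The 371 genes that fell summed to 5.09, 5.31 and 3.87 M normalized counts before chilling (replicates 1, 2 and 3) and to 3.85, 4.09 and 2.84 M after it. The 364 genes that rose summed to 1.13, 1.21 and 1.51 M at 0 h and to 1.67, 1.58 and 2.09 M at 1 h. These sums are on the deposited scale and over genes chosen for their direction. With equal library totals other numbers of genes were called, 637 higher and 233 lower.

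The 24 h values of the called genes that changed at least 2-fold at 1 h are given beside their 1 h values. Both are set against the same 0 h libraries and the genes were chosen for a large change at 1 h. A shared direction and a smaller size at 24 h are therefore favoured by the choice, and nothing is read from them. The 47 genes that rose had a median log2 change of 1.29 at 1 h and 0.95 at 24 h, and 22 of them were at least 2-fold higher at 24 h. The 38 genes that fell had a median of -1.29 at 1 h and -1.17 at 24 h, and 22 of them were at least 2-fold lower at 24 h. By the treatment times, harvest at 24 h fell at the same hour of day as at 0 h, and harvest at 1 h did not. Comparisons of 24 h with 1 h therefore also differ in the hour of day.

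**Figure D5:**
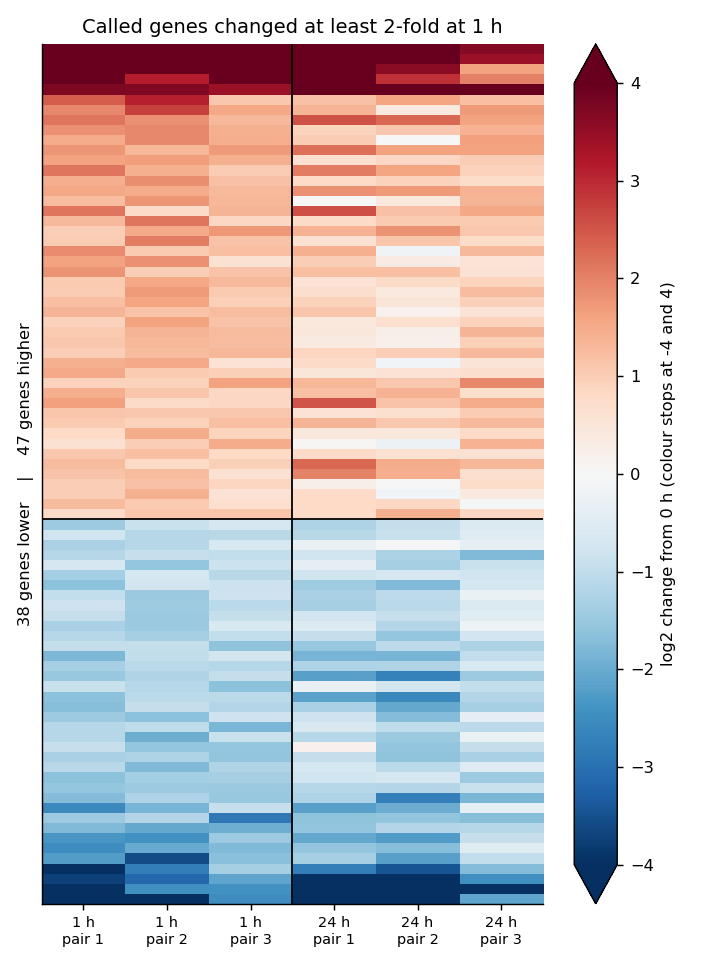
Log2 change from 0 h at 1 h (left) and 24 h (right) in each pair, for the 47 genes called higher and 38 called lower by at least 2-fold at 1 h. Rows are genes ordered by their mean change at 1 h, colour gives the log2 change and stops at -4 and 4, and the black lines separate times and directions. Both times are set against the same 0 h libraries. The genes were chosen for their change at 1 h, so the paler colours of many rows at 24 h are favoured by that choice.

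Among the named genes, the later values ran in both directions. At 24 h Glyma18g14490 was at 635, 542 and 95 normalized counts, Glyma08g41640 at 176, 134 and 37, and Glyma17g12804 at 524, 458 and 164, each below its 1 h value in all 3 replicates. Glyma14g37440 was at 13323, 15459 and 4076, above its 1 h value in all 3. Glyma02g45170 was at 13144, 11001 and 105, below its 1 h value in all 3. Of the named falls, Glyma09g32120 was at 6, 3 and 22 and Glyma10g35000 at 1, 2 and 2, below 1 h in all 3. Glyma19g27580 was at 45, 80 and 89, above 1 h in all 3. Glyma10g34991 was at 5, 0 and 17, below 1 h in replicate 2 only. The test of 24 h against 1 h called none of the 39014 genes (limma on 9 libraries with the replicate block, 2205 genes at an unadjusted p under 0.05, adjusted p of 0.552 for Glyma14g37440 and 0.801 to 0.984 for the other 8 named genes), so a later loss or gain was not established for any of them.

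The called genes were spread over all 20 chromosomes of the identifiers. The share called ran from 1.28% on chromosome 12 to 2.46% on chromosome 10, close to the 1.91% of all 38371 tested genes with a chromosome number. Of 156 tested genes on unplaced scaffolds 1 was called. None of the 487 tested genes with a Locus identifier was called, a class with a median level of 21.2 normalized counts, compared with 419.5 for genes with a chromosome number.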

How the data were processed

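RNA-seq libraries of total RNA were made with the TruSeq v2 protocol, per the labels' protocols. The authors deposited scores: read counts that were normalized and rounded to whole numbers, per the file name and values. Cutadapt 1.2.1 and DESeq 1.12 appear in the submitters' processing notes, whose use of them is not described. Neither the aligner and counter nor the genome build is given in the sources used here.

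Groups and replicate numbers came from the sample titles. Low scores fell on evenly spaced steps with a minority midway between them, so whole reads were not recovered and no count test of all genes was run. Estimated reads were rounded to whole numbers only for the binomial interval of Glyma08g41640 and for the thinning. Genes averaging 10 or more across the 6 libraries were tested on log2(score + 1), which understates the change of low genes. The test was limma 3.58.1 in R 4.3.3 (time and replicate number, eBayes with trend and robust moderation, 2 residual degrees of freedom), two-sided, with Benjamini-Hochberg adjustment over 39014 genes and a threshold of 0.05. The SE is moderated by the spread of other genes, with a median of 6.15 prior degrees of freedom beside the 2 residual ones. Tables and figures used Python 3.11.15, numpy 2.4.6, scipy 1.17.1, pandas 2.3.3 and matplotlib 3.10.9.

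The pairing by replicate number was checked: deviations from the group means correlated across genes at 0.83, 0.69 and 0.94 within pairs 1, 2 and 3, and each of the 6 libraries correlated best with its partner. This check comes from the data, as the labels do not explain the numbers. The test was also tried on simulated data with noise set by level only. It called 55% of 100 genes with a log2 change of 1 and 88.9% of 99 genes with a change of 2. Of its 147 calls, 2.72% were unchanged genes. Real noise may differ between genes of one level, so this does not give the error rate of the calls reported here.

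Of 49777 identifiers, 0 were found among the 59048 genes of a RefSeq table (soybean assembly v4.0), so the planned gene lists and marker checks were not run. Genes were named by rule: the first 2 each way among called genes averaging 100 or more at the higher time and no overlap between times, ranked by the change every pair reached. A further 5 genes, called and at least 8-fold, were added after their values were seen. The comparison, the rule and the alternatives were chosen with earlier results of these data known.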

Additional observations from a re-analysis of the deposited data

How the results depend on the processing

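Against 735 called genes, the fit with no replicate block gave 0, also when any 1 of the 6 libraries was left out. With the replicate block, 0 genes passed with neither trend nor robust moderation, 204 with trend alone, 394 with no filter on low values, 486 after thinning to one estimated depth, and 1737 with all 9 libraries in the fit, which share 679 genes with the 735. A 2-fold minimum left 85 by construction. Leaving out both libraries of a replicate number left 34 to 437 genes, and leaving out 1 library of a pair removes that pair from a blocked fit in the same way. Fewer samples enter these fits. Otherwise the cause of these differences was not tested. Both pseudocounts, a mean of at least 100 and the scalings gave 562 to 1060 genes, and equal totals moved the median of all genes from -0.02 to 0.04 on the log2 scale. The share of abundant genes lower at 1 h moved from 58.5% to 47.2% with equal library totals and 53.4% with quantile normalization. None of the 9 named genes changed direction in any alternative run that tested them, which their choice for large changes favours. The run with a mean of at least 100 tested 6 of them. Among the 735 called genes, 6 to 99 changed direction when 1 library was left out of the fit with no replicate block. In every other run 0 of the 735 did. With the block, the 5 named rises kept their calls except with neither trend nor robust moderation, where all 9 lost them, and Glyma02g45170 without replicate 3. The 4 named falls also lost theirs without replicate 1 or 2, Glyma10g34991 with trend alone or a pseudocount of 0.5, and Glyma10g35000 with trend alone or after thinning. With pseudocounts of 0.5 and 5 the log2 change was 8.12 and 6.24 for Glyma08g41640 and -5.01 and -3.43 for Glyma10g34991. Count tests of all genes needed whole reads and could not be run. Genes with a mean under 100 had a median SE of 0.448, compared with 0.085 at means of at least 1000, and the part of depth in this was not tested.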

Other observations

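A small set of abundant genes moved strongly in opposite directions in 2 of the pairs. Among the 11779 genes averaging 1000 or more, 19 were at least 2-fold lower at 1 h in pair 1 and at least 2-fold higher in pair 2. The reverse was seen in 1 gene, and 2 genes were lower in pair 3 and higher in pair 1. The other 3 combinations held 0 genes. The median log2 change of the 19 genes was -1.31 in pair 1, 1.91 in pair 2 and 0.07 in pair 3, and in pair 3 no gene left the range from -0.69 to 0.30. Their summed counts made up 0.35%, 0.27% and 0.33% of the library in replicates 1, 2 and 3 at 0 h. At 1 h they made up 0.15%, 1.02% and 0.36%, and at 24 h 0.03%, 0.68% and 0.66%. The 1 h library of replicate 2 was highest of the 6 libraries in 18 of the 19 genes, and the 24 h library of replicate 1 was lowest of the 9 in 18. None of the 19 was called. They were chosen after their values were seen, so no test was made, and what they share was not tested. For comparison, 24 genes of this class were at least 2-fold higher in both pairs 1 and 2, and 16 at least 2-fold lower.

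One tested gene was listed at 0 in all 3 libraries of 1 h and above 0 in all 3 of 0 h, at 5 to 40 normalized counts, and it was not called. No tested gene showed the reverse.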
